A study of Homo sapiens with 2 samples.

Results

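The genes described here are 50 zinc finger (ZNF) genes that lie in 2 blocks on chromosome 19, 23 in the block called 19p12 and 27 in the block called 19q13.4. They were taken by symbol, and each gene is represented by its brightest probe set among those annotated with that symbol alone. Such a probe set was found for 44 of the 50 genes, and 25 of these were measured, which means that their mean log2 signal over both arrays reached a filter of 50.4, the median signal of the probe sets that are not controls. All 50 symbols lie on chromosome 19 in the RefSeq gene table. The band names and the KRAB domain were taken as given and were not checked here.

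RNA came from HCT116, an established human colon cancer cell line. One culture had received siRNAs against JMJD1A and JMJD1B for 2 days, and the other a control siRNA. Both targets are now called KDM3A and KDM3B, and encode demethylases that remove mono- and dimethyl marks from lysine 9 of histone H3 (H3K9). Each condition was measured on 1 array, so no value below carries a replicate error, no difference was tested, and a difference is one between these 2 samples. Both are bulk samples, in which fewer cells with a transcript and less of it per cell cannot be told apart.

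KRAB zinc finger proteins bind DNA through rows of C2H2 zinc fingers, and their KRAB domain recruits the corepressor TRIM28. TRIM28 in turn brings in the methyltransferase SETDB1 and the HP1 proteins, which write and read trimethylated H3K9, for the most part at transposable elements. The genes themselves arose by repeated local duplication, and the chromosome 19 clusters are known as large domains of H3K9 methylation, with the mark densest over the exons that encode the fingers. The comparison with other ZNF genes asks whether transcripts from these domains differ between cells given the KDM3A/KDM3B siRNAs and cells given the control siRNA in another way than ZNF transcripts at large. Histone methylation was not measured here.

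The family resemblance shows in the DNA just upstream of the genes in the 19p12 block, and much less in the 19q13.4 block. RefSeq (build GRCh38.p14) gave a gene start for 43 of the 50 genes, and the 250 bases before the first listed start were read. Shown first are ZNF85 and ZNF91 of the 19p12 block, as a pair about as alike as most in that block, whose brightest probe sets had different log2 ratios, followed by ZNF765 and ZNF766 of the 19q13.4 block, the lowest measured member and one that was nearly level. Each is written 5′ to 3′ on the gene's strand, and capitals mark the letters of a CCAAT box, a GC box or the core of a hypoxia response element, each defined below and searched on both strands. ZNF85 is at chr19:20923001-20923250 (plus strand), ZNF91 at chr19:23395472-23395721 (minus strand), ZNF765 at chr19:53394899-53395148 (plus strand) and ZNF766 at chr19:52269337-52269586 (plus strand).
ZNF85: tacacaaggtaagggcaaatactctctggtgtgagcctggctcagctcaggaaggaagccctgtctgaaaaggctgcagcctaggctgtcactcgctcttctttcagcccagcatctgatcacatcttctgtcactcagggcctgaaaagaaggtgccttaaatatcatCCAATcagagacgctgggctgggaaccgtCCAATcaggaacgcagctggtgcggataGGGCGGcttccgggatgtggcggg
ZNF91: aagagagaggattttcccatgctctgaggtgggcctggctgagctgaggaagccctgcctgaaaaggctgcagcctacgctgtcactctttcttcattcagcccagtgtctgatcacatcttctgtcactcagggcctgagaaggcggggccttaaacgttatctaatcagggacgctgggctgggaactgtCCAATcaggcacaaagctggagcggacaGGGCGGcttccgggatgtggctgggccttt
ZNF765: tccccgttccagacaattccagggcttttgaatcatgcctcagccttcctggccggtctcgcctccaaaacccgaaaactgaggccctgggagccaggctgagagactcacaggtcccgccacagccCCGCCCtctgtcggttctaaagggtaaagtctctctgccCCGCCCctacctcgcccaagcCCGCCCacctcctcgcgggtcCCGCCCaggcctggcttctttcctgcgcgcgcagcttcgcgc
ZNF766: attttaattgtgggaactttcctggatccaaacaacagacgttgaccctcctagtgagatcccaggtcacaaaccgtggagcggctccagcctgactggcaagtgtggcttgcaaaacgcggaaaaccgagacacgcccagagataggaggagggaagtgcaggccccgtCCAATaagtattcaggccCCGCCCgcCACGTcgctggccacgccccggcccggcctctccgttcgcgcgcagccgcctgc

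The ZNF85 and ZNF91 stretches were 80.9% identical in a global alignment, with an unbroken shared run of 32 bases. ZNF765 and ZNF766 were 50.2% identical, with a longest shared run of 10 bases. Over all pairs the median identity was 78.2% among the 21 upstream stretches of the 19p12 block, 52.4% among the 22 of the 19q13.4 block and 48.4% between the blocks. The CCAAT box, searched as CCAAT on both strands, was present in 21 of 21 stretches of the 19p12 block and in 5 of 22 of the 19q13.4 block, against 45.0% of 362 other ZNF genes and 33.0% of all 27305 genes with a start. The GC box, searched as GGGCGG on both strands, was present in 14 of 21 and 21 of 22 stretches, against 60.2% of other ZNF genes and 42.3% of all genes. The median number of CpG dinucleotides was 8 in the 19p12 block and 19.5 in the 19q13.4 block, against 17.5 in other ZNF genes and 11 in all genes. The core of a hypoxia response element, searched as ACGTG on both strands, was found in 4 of the 43 stretches (9.30%), against 18.7% of all genes. These are matches of letters and not measured binding sites.

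KDM3B transcript was much lower in cells given the KDM3A/KDM3B siRNAs, at signals of 496 and 315 on its 2 measured probe sets, against 3031 and 2765 in control cells. The measured KDM3A probe set read 3323 on the KDM3A/KDM3B siRNA array and 3884 on the control array, a log2 ratio of -0.22. The median signal over all 54675 probe sets was 55.4 on the KDM3A/KDM3B siRNA array and 52.2 on the control array. All 7 colon epithelium markers were measured, whereas of 9 markers of leukocytes, fibroblasts and endothelium only CD3E (65.5 on the KDM3A/KDM3B siRNA array and 48.3 on the control array) and PECAM1 (158 and 116) were. CDX2 (78.2 and 108) and VIL1 (104 and 86.2), both colon markers, read below PECAM1 on both arrays. No value was obtained for the leukocyte marker CD68. The 18 hybridization controls, transcripts added in equal amounts by the array maker's procedure, without exception read higher on the KDM3A/KDM3B siRNA array, with 0.61 as the median of their log2 ratios, although the deposited scaling had set both arrays to one trimmed mean. Ratios below are on the deposited scale, KDM3A/KDM3B siRNA array minus control array. Values with the arrays set level on the hybridization controls are given for main counts over members and the silencing and H3K9 methylation genes.

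The cluster genes did not move as a block. Of the 25 measured members, 2 passed 2-fold upwards on the KDM3A/KDM3B siRNA array by the ratio of their signals (ZNF253 and ZNF600), 3 passed 2-fold downwards (ZNF765, ZNF738 and ZNF480) and 20 lay within 2-fold. The shares over all 12561 measured genes were 8.91% upwards and 8.53% downwards, so the members' shares of 8% and 12% were near the background. The signal of ZNF480 on the KDM3A/KDM3B siRNA array lay under the filter. With every signal under the filter raised to it, 2 members were 2-fold higher and 2 were 2-fold lower (ZNF738 and ZNF765), against 8.43% and 8.14% of all measured genes. The members' median log2 ratio was -0.12, with quartiles of -0.39 and 0.13, against 0.04 for all measured genes. The ratio was below 0 in 18 of the 25 members, against 47.9% of all measured genes. Quantile normalization and loess left the members' median below 0, at -0.07 and -0.08. Scaling to one median and levelling on the hybridization controls lower every ratio by a constant, so the median could only fall.

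**Figure D1:**
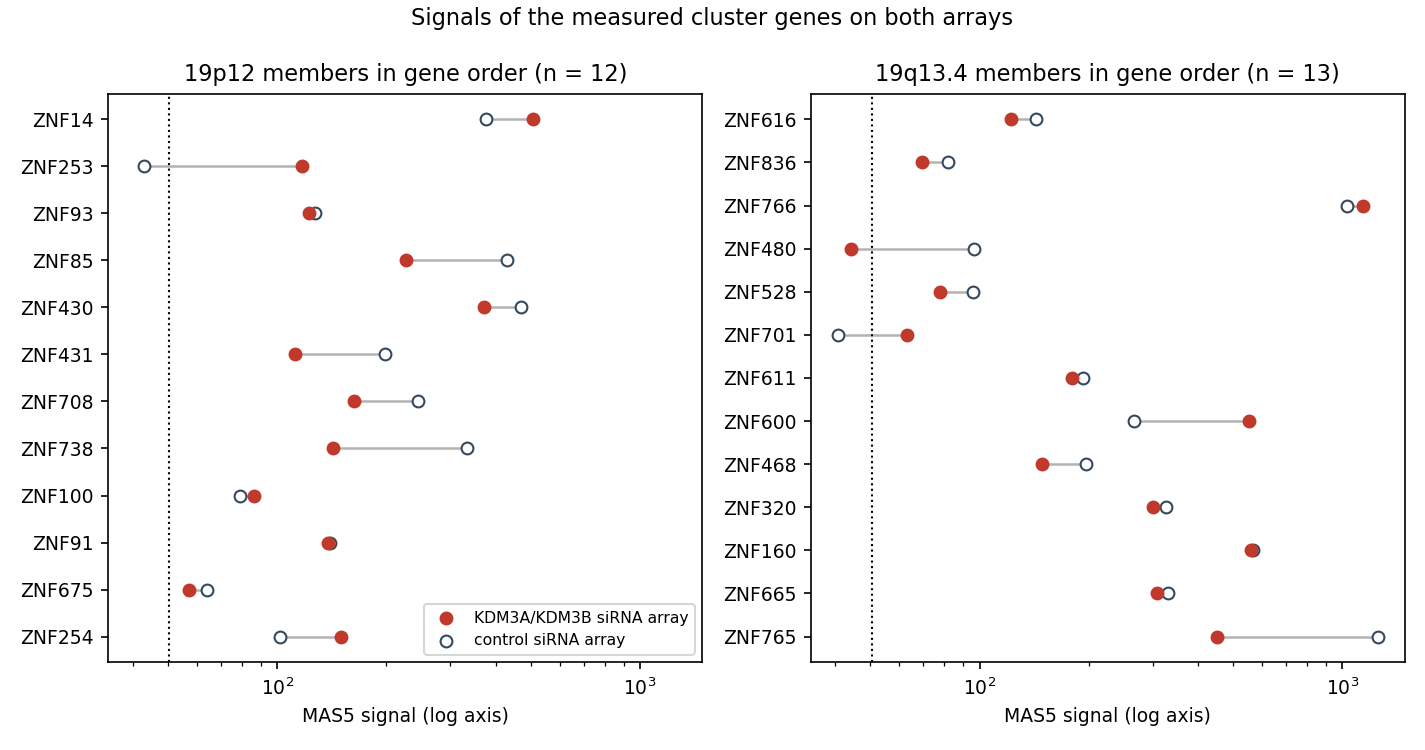
MAS5 signal (log axis) of the 25 measured cluster genes on the KDM3A/KDM3B siRNA array (filled) and the control array (open), 1 array each, in gene order along the 19p12 block (left, 12 genes) and the 19q13.4 block (right, 13 genes). The dotted line is the filter of 50.4, and the widest gaps are those of ZNF253, ZNF738, ZNF480, ZNF600 and ZNF765.

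ZNF765 had the lowest ratio of the measured members. Its brightest probe set read 450 on the KDM3A/KDM3B siRNA array and 1251 on the control array, 2.78-fold lower. Another one, annotated with the same source sequence, read 289 and 1209, a log2 ratio of -2.07. Both probe sets were thus lower, beyond the SD of 0.54 that a single probe set's log2 ratio showed between the 2 brightest probe sets of 6192 genes. That SD is scatter between probe sets within these arrays and not between samples. Of all measured genes, 21.2% were lower by more than that SD and 23.7% higher. The remaining ZNF765 probe set lay under the filter, at 28.4 and 3.83.

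ZNF738 of the 19p12 block read 143 on the KDM3A/KDM3B siRNA array and 333 on the control array, 2.33-fold lower. ZNF480 of the 19q13.4 block read 44.2 and 96.3, a log2 ratio of -1.12 by its signals. Because the dimmer of these did not reach the filter, ZNF480 can only be said to be at least 1.91-fold lower, which is short of 2-fold. Each of these genes rests on 1 measured probe set.

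In the other direction, ZNF253 read 117 on the KDM3A/KDM3B siRNA array and 42.8 on the control array, 2.74-fold higher by its signals and at least 2.33-fold higher against the filter. ZNF600 read 554 and 267, 2.08-fold higher. Both were represented by a single measured probe set with the suffix _x_at, which the array maker gives to probe sets whose probes can also match other transcripts. With the arrays level on the hybridization controls ZNF253 stood at 0.84 and ZNF600 at 0.44, and neither was 2-fold higher. On that scale 7 of the 25 members (28%) passed 2-fold downwards and 0 upwards, against 27.7% and 2.15% of all measured genes, and 22 of the 25 lay below 0, against 79.5%.

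The brightest probe sets belonged to genes that changed little by those probe sets, apart from ZNF765. ZNF766 read 1138 on the KDM3A/KDM3B siRNA array and 1030 on the control array, a log2 ratio of 0.14. ZNF160 read 561 and 568, a log2 ratio of -0.02. These signals do not rank the transcripts, since probe sets differ in response. ZNF14 read 507 and 377 (0.43), and ZNF430 read 371 and 470 (-0.34). The other measured ZNF430 probe set was lower, at 114 and 194 (-0.76).

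The genes best known for silencing retrotransposons were level by their brightest probe sets. ZNF91, whose protein binds SVA elements, read 138 on the KDM3A/KDM3B siRNA array and 140 on the control array, a log2 ratio of -0.02. ZNF93, whose protein binds LINE-1 elements, read 123 and 127, a log2 ratio of -0.05. Another measured ZNF91 probe set read 39.0 and 93.3, at least 1.85-fold lower against the filter, so the level value of ZNF91 is not shared by its probe sets. ZNF675, also known as TIZ for its interaction with the signalling adaptor TRAF6, read 57.2 and 64.2, just above the filter.

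Along the 19p12 block, the ratios ranged from 1.45 at ZNF253 to -1.22 at ZNF738, with a median of -0.11 over 12 measured members. The middle of the block held a run of genes below 0. ZNF85 read 226 on the KDM3A/KDM3B siRNA array and 429 on the control array (-0.92), and ZNF431 read 112 and 198 (-0.83). ZNF708 read 163 and 244 (-0.58), so that with ZNF430 and ZNF738 all 5 consecutive measured genes from ZNF85 to ZNF738 were lower by their brightest probe sets. Another ZNF85 probe set, its mean under the filter, went the other way at 66.8 and 21.6, at least 1.33-fold higher against the filter. The other ZNF738 probe set lay under the filter on both arrays, at 41.5 and 48.2. Both ends of the block held genes above 0, ZNF14 and ZNF253 at one and ZNF254, at 150 and 102 (0.56), at the other, while ZNF100 (86.5 and 78.9) lay between. Over the block, where 8 of 12 measured members were below 0, 7 of 11 pairs of measured neighbours had ratios of one sign. That count was not compared with other gene orders, so no grouping along the block is read from it.

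Along the 19q13.4 block, the ratios ranged from 1.05 at ZNF600 to -1.48 at ZNF765, with a median of -0.12 over 13 measured members. Most lay close to 0. ZNF320 read 300 on the KDM3A/KDM3B siRNA array and 325 on the control array, ZNF665 read 307 and 331, and ZNF611 read 180 and 192, with log2 ratios between -0.12 and -0.09. ZNF468 (149 and 196), ZNF528 (77.8 and 96.2), ZNF836 (69.3 and 81.8) and ZNF616 (122 and 143) were between -0.39 and -0.23 by their brightest probe sets. The other measured ZNF616 probe set stood at -0.56. ZNF701 read 63.0 and 40.7, at least 1.25-fold higher against the filter, with its mean of 50.6 just inside it. In the RefSeq gene table ZNF28 lies inside the span of ZNF600, so the reading of ZNF600 is uncertain to that extent. ZNF600 lay between ZNF611 and ZNF468 among the measured genes, both of them slightly below 0. In this block 10 of 13 measured members were below 0, and 6 of 12 pairs of measured neighbours had ratios of one sign. This pair count, too, was not compared with other gene orders.

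**Figure D2:**
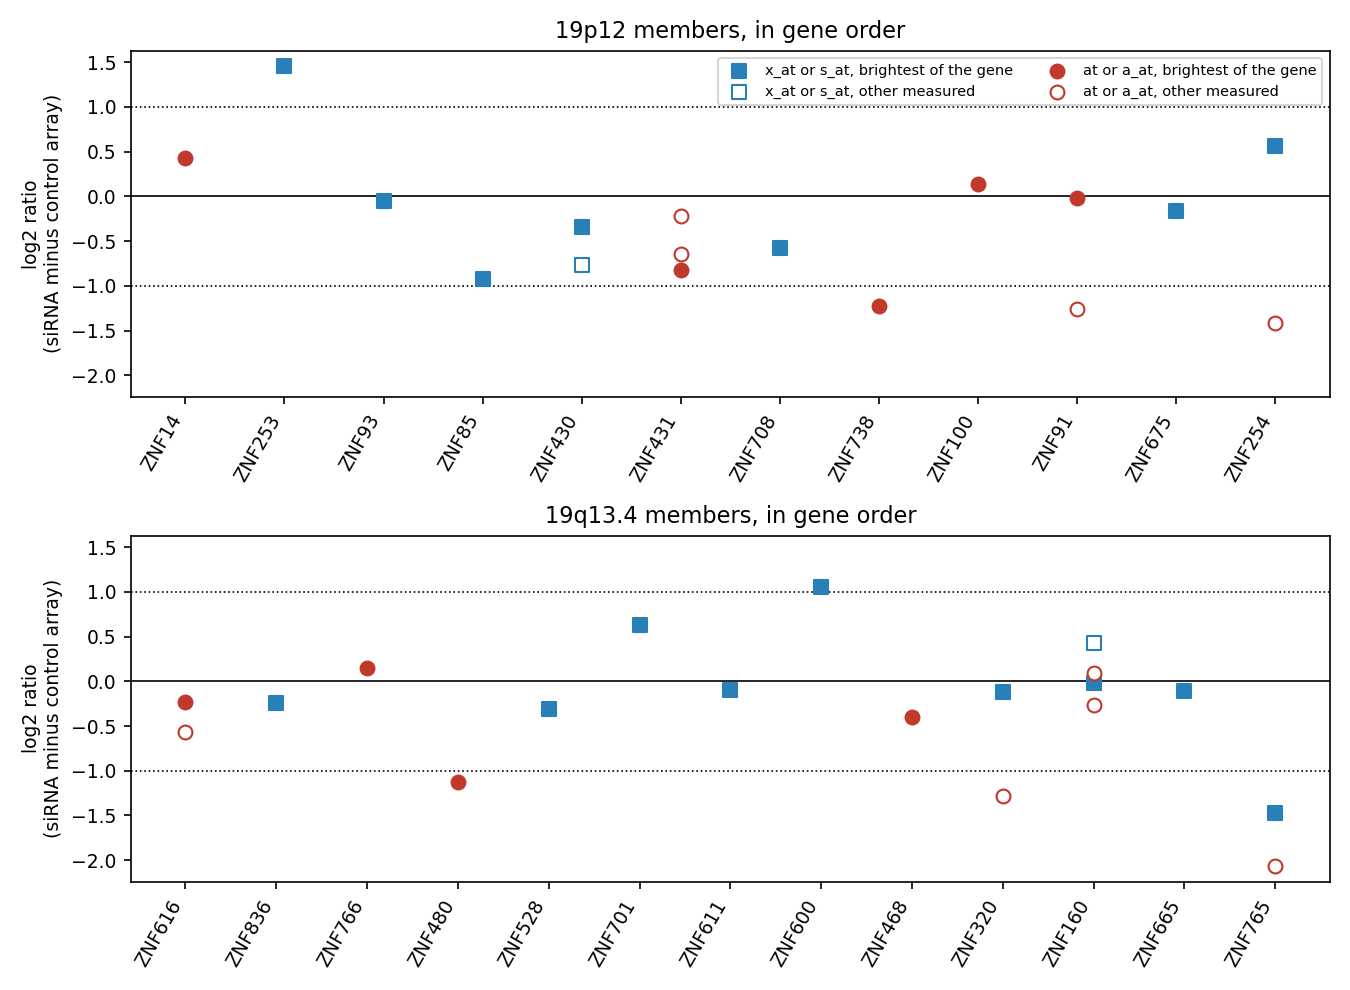
Log2 ratio (KDM3A/KDM3B siRNA array minus control array) of every measured probe set of the cluster genes, in gene order along each block. Squares are probe sets with the suffix x_at or s_at, circles those with at or a_at, filled symbols the brightest of a gene, and dotted lines 2-fold, with all 6 circles beyond 2-fold lying on the lower side, 2 of them (of ZNF480 and ZNF91) with a signal under the filter.

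Probe sets of one member often differed. Of 8 members with 2 or more measured probe sets, 3 spanned more than 1 log2 unit. ZNF254 stood at 0.56 by its brightest probe set and at -1.42 by an _a_at probe set that read 53.3 on the KDM3A/KDM3B siRNA array and 142 on the control array. ZNF320 stood at -0.12 by its brightest and at -1.28 by an _at probe set that read 167 and 406. ZNF91, given above, completes these 3, while the 4 measured ZNF160 probe sets lay between -0.26 and 0.43 and the 3 of ZNF431 between -0.83 and -0.22. Over these 8 members the SD of a single probe set was 0.71, against 0.61 over 132 other ZNF genes and 0.54 over all genes.

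Most members were represented by probe sets of one kind. An _x_at probe set was the brightest for 16 of the 25 measured members (64.0%), against 6.55% of all measured genes and 9.36% of 267 other ZNF genes. Among the members' 18 measured _x_at or _s_at probe sets, the median was -0.11, and 2 passed 2-fold upwards and 1 downwards, against 8.39% and 8.59% of such probe sets over all genes. Among the 18 with the suffix _at or _a_at, which carry no such mark, the median was -0.48, and 6 passed 2-fold downwards and 0 upwards by the ratio of their signals. Over all genes, 11.6% of measured _at and _a_at probe sets passed 2-fold downwards and 9.2% upwards. With signals under the filter raised to it, 4 of the 18 were 2-fold lower, against 10.9% over all genes, since the probe sets of ZNF480 and ZNF91 were then at 1.91-fold and 1.85-fold.

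Taking only probe sets without the suffixes _x_at and _s_at left 13 measured members. Of these, 5 passed 2-fold downwards by the ratio of their signals (ZNF254, ZNF320, ZNF480, ZNF738 and ZNF765) and 0 upwards, with a median log2 ratio of -0.39. With the same restriction the share of all genes was 10.6% for 2-fold lower and 9.07% for 2-fold higher, and over 226 other ZNF genes, whose median was -0.10, it was 13.3% and 5.75%. With signals under the filter raised to it, which leaves out ZNF480, 4 of the 13 were 2-fold lower, against 10.1% of all genes and 12.8% of other ZNF genes, and 0 were 2-fold higher, against 8.44% of all genes. The part of shared probes in the ratios of the other members was not tested. With 1 array per condition and 13 genes, this count describes these arrays only.

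The remaining 19 members with a probe set lay under the filter on average. Their brightest probe sets read between 2.11 and 52.3, with a median of 16.9, on the KDM3A/KDM3B siRNA array, and between 1.80 and 46.2, with a median of 9.89, on the control array. Only ZNF43 exceeded the filter on either array, at 52.3 and 35.2. ZNF331, an imprinted gene, read 44.5 and 22.6, and ZNF626 read 42.1 and 23.7, both just outside the filter on the mean. ZNF808, a gene needed for pancreas development, read 3.53 and 12.2. The others were ZNF28, ZNF83, ZNF90, ZNF208, ZNF257, ZNF347, ZNF415, ZNF486, ZNF578, ZNF610, ZNF677, ZNF681, ZNF682, ZNF813 and ZNF880. No change is read from these, since among the 7214 genes under the filter 28.5% passed 2-fold upwards and 19.9% downwards. No probe set with a single symbol was listed for ZNF714, ZNF726, ZNF737, ZNF761, ZNF816 and ZNF841, which were not analysed here.

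By brightest probe sets, other ZNF genes gave 2-fold shares and medians of similar size. The 267 other measured ZNF genes had a median log2 ratio of -0.07, and 5.62% of them passed 2-fold upwards and 9.74% downwards. The ratio was below 0 in 147 of these 267 genes, against 18 of the 25 members. With the mean over a gene's measured probe sets the medians lay further apart, at -0.31 for the members and -0.10 for the other ZNF genes. With the arrays level on the hybridization controls they were -0.73 and -0.68. The 91 of these on chromosome 19 had a median of -0.02, with 7 genes 2-fold higher and 6 genes 2-fold lower. The 176 on other chromosomes had a median of -0.10, with 8 genes 2-fold higher and 20 genes 2-fold lower. The members' interquartile range of -0.39 to 0.13 lay within that of the genes on other chromosomes, -0.68 to 0.32. Of the other ZNF genes, ZNF483 (112 on the KDM3A/KDM3B siRNA array and 25.8 on the control array, at least 2.22-fold higher against the filter) and ZNF594 (25.8 and 133, at least 2.63-fold lower) were the extremes. The median signal was 171 for the measured members, 361 for other measured ZNF genes and 685 for all measured genes.

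**Figure D3:**
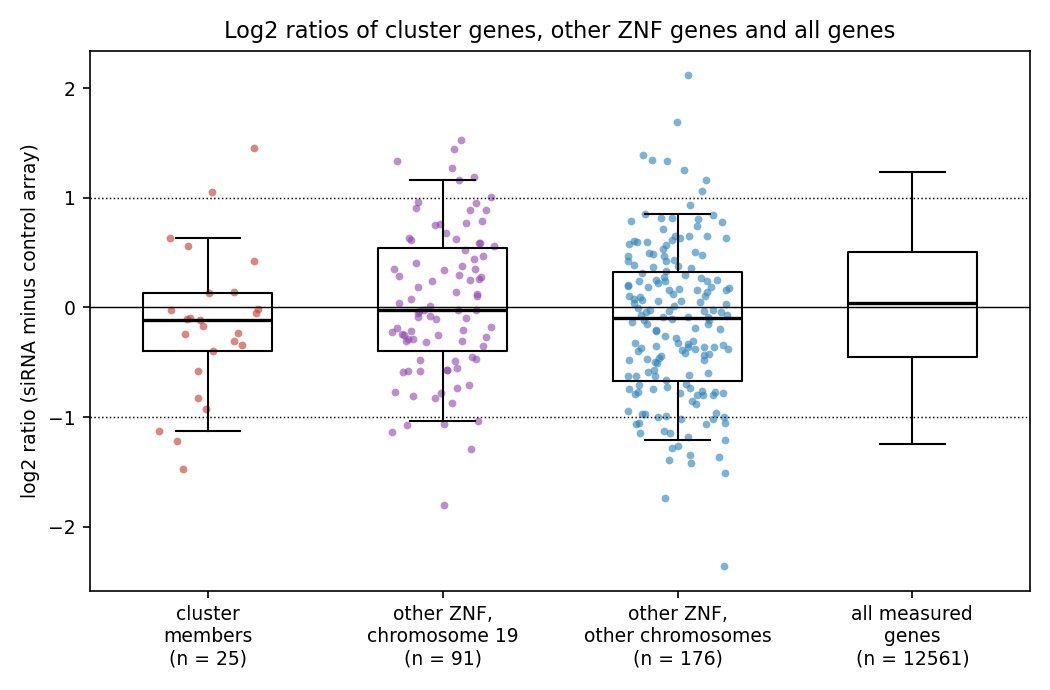
Log2 ratios (KDM3A/KDM3B siRNA array minus control array) of the 25 cluster members, 91 other ZNF genes on chromosome 19, 176 on other chromosomes and all 12561 measured genes. Points are genes (not drawn for all genes), boxes span the quartiles with the median, whiskers run from the 5th to the 95th percentile and dotted lines mark 2-fold, with the medians between -0.12 and 0.04.

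Few other genes inside the blocks were measured. In the 19p12 block ZNF493, not among the 50, read 53.9 on the KDM3A/KDM3B siRNA array and 66.0 on the control array, and the pseudogene IPO5P1 read 92.6 and 180, a log2 ratio of -0.96. LINC00663, a non-coding RNA gene, had a log2 ratio of 0.24 by its brightest probe set and 1.28 by another, and the pseudogene RPL7AP10 one of 0.05. In the 19q13.4 block PPP2R1A, the scaffold subunit of protein phosphatase 2A, read 629 and 587, a log2 ratio of 0.10. None of these 5 genes was 2-fold different by its brightest probe set on the deposited scale, while IPO5P1 stood at -1.57 with the arrays level on the hybridization controls.

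A list of 34 genes of KRAB and TRIM28 silencing, of H3K9 methylation and its removal, and of DNA methylation maintenance was examined. Of these, 32 had a probe set and all 32 were measured. Their median log2 ratio was -0.33 on the deposited scale, where 4 genes (12.5%) passed 2-fold downwards and 1 (3.13%) upwards, against 8.53% and 8.91% of all measured genes. TRIM28, the corepressor that binds the KRAB domain, read 2543 on the KDM3A/KDM3B siRNA array and 3904 on the control array, a log2 ratio of -0.62. SETDB1, the H3K9 methyltransferase it recruits, read 364 and 555 by its brightest probe set (-0.61), its other one being at -0.01. ATF7IP, the partner of SETDB1, read 459 and 994, or 2.17-fold lower, and its 3 probe sets lay between -1.12 and -0.19.

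All 7 H3K9 methyltransferases and cofactors of the list had a ratio below 0 by their brightest probe set, also under quantile normalization and loess. The other scalings lower every ratio by a constant and could not change this. Of all measured genes, 47.9% were below 0 on the deposited scale and 79.5% with the arrays level on the hybridization controls. The other measured probe set of EHMT1 stood at 0.36. EHMT2, which writes mono- and dimethylated H3K9 and so opposes KDM3A and KDM3B, read 167 on the KDM3A/KDM3B siRNA array and 426 on the control array, 2.55-fold lower. HP1 genes differed less by their brightest probe sets, with CBX5 at 0.18. The 5 probe sets of CBX5 lay between -0.86 and 1.62, and the 4 of CBX3 between -0.27 and 1.06. ZNF274, a KRAB zinc finger protein that binds the 3′ exons of ZNF genes and recruits SETDB1 there, read 943 and 485 (0.96), while its other probe set stood at -0.10.

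The trimethyl-H3K9 demethylases KDM4A, KDM4B and KDM4C had ratios of 0.35, 1.32 and 0.92 by their brightest probe sets, and KDM4A turned to -0.26 with the arrays level on the hybridization controls. Their other probe sets reached down to -0.23 for KDM4A, 0.04 for KDM4B and -0.06 for KDM4C. Genes that maintain DNA methylation were lower. UHRF1, which reads H3K9 methylation at replication forks and recruits DNMT1, read 2632 on the KDM3A/KDM3B siRNA array and 8136 on the control array, 3.09-fold lower, and DNMT1 read 1825 and 4154, 2.28-fold lower. With the arrays level on the hybridization controls, 15 of the 32 genes passed 2-fold downwards and 0 upwards, on a scale where 27.7% of all measured genes passed downwards and 2.15% upwards.

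**Figure D4:**
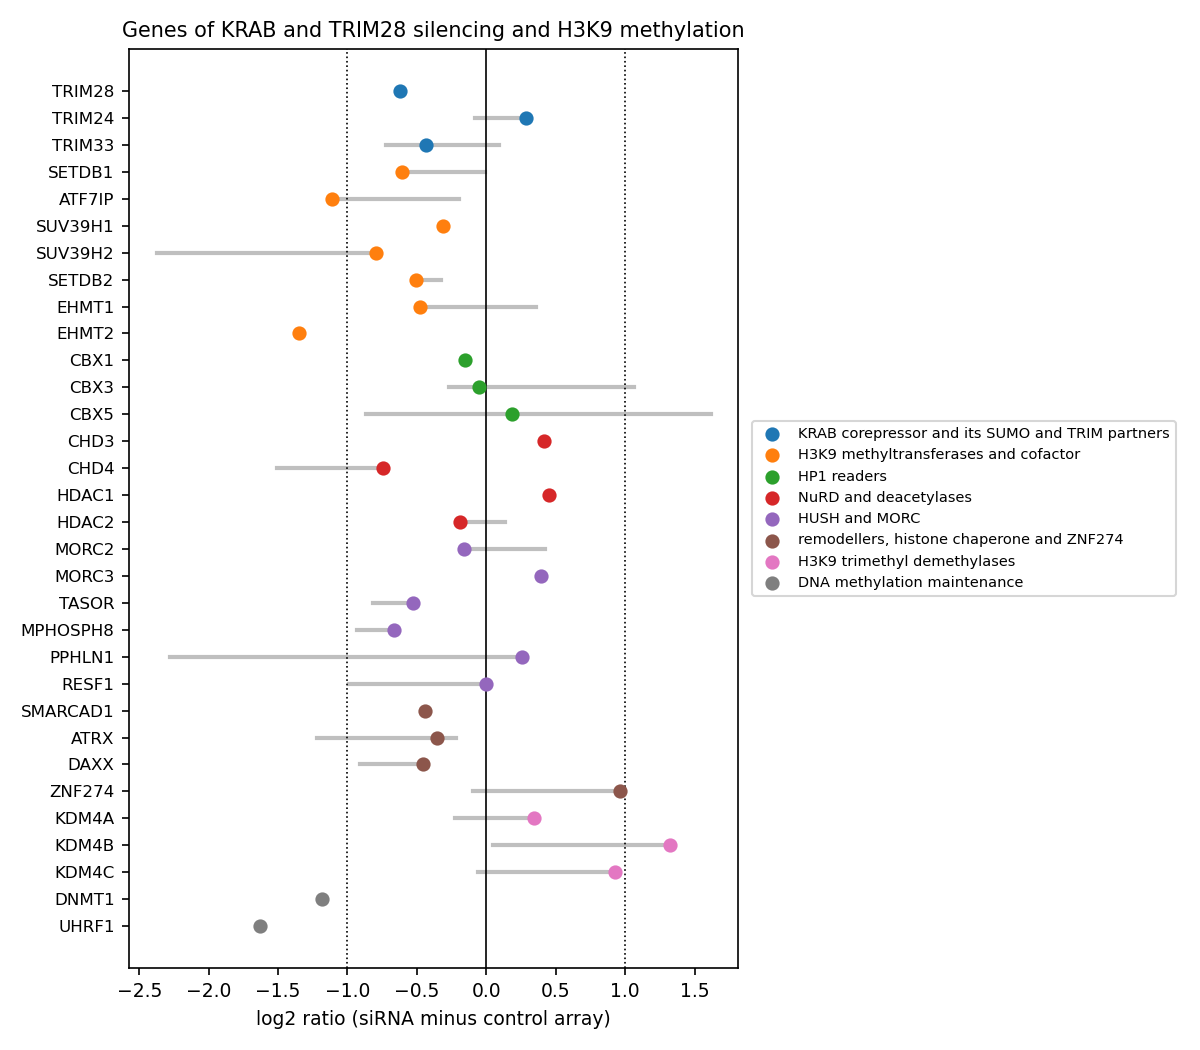
Log2 ratio (KDM3A/KDM3B siRNA array minus control array) of the 32 measured genes of KRAB and TRIM28 silencing and H3K9 methylation, grouped by role. Points are the brightest probe set of each gene, grey bars the range over its measured probe sets and dotted lines 2-fold, with UHRF1 lowest at -1.63 and KDM4B highest at 1.32.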

How the data were processed

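The authors deposited linear intensity values of 54675 probe sets for 2 Affymetrix arrays, hybridized with biotinylated material from 0.5 ug of total RNA per the labels' protocols. MAS5 produced these intensities, per the submitters' processing notes, and its settings are not given in the sources used here. Both arrays had a trimmed mean of 500.1 (2% cut from each end). Gene symbols came from the platform annotation, which gave 1 symbol to 41091 probe sets other than controls, several to 1801 and none to 11721, and all 86 probe sets of the members kept their symbol when looked up by gene identifier.

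The log2 of each signal was used without a pseudocount, and the filter, the probe set rule and 2-fold threshold are given above. A fold given as "at least" raises the dimmer signal to the filter and allows for no error in the brighter one. No test was run, because precision is limited by having 1 array per condition. The members' and other ZNF genes' counts and medians were recomputed with 4 other scalings, a pseudocount, 3 other filters, 2 other probe set rules and, for counts, 2 other thresholds, and the medians of each block and the ratios of single members with all but the thresholds. The silencing and H3K9 methylation genes were recomputed with the 4 scalings only. The promoter counts, the chromosome and suffix splits and the genes beside the members were recomputed with none. Raising signals under the filter to it was an alternative chosen after seeing the data. Genes were named by a rule that takes the 2-fold members, the 5 brightest, the 3 nearest to no change, those beside the filter, and the largest changes of the other lists. The members, lists, filter and alternatives were chosen with earlier results of these data known. The calculation was tested on simulated data, with planted changes larger than 2-fold and noise smaller than the scatter between probe sets. That checks the calculation and not the reliability of the ratios given here. Python 3.11.15, numpy 2.4.6, pandas 2.3.3, statsmodels 0.14.6 (loess) and Biopython 1.88 (alignment) were used.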

Additional observations from a re-analysis of the deposited data

Results flagged for a closer look

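Outside the gene comparison, the 18 hybridization control probe sets had log2 ratios between 0.40 and 0.71, with a median of 0.61, and they report only a few added transcripts. A probe set annotated with both ZNF320 and TMEM192, assigned to neither gene, read 2200 on the KDM3A/KDM3B siRNA array and 1168 on the control array, a log2 ratio of 0.91. Both ZNF320 probe sets with that symbol alone were below 0, at -0.12 and -1.28. Other measured probe sets naming a member with another gene stood at 0.08 (ZNF816 with ZNF816-ZNF321P) and 0.40 (ZNF43 with ZNF729).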

How the results depend on the processing

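Scaling, probe set choice and filter each moved some counts, and the cause was not tested except where the setting itself gives it. Quantile normalization and loess left the same 5 members 2-fold changed as the deposited scaling. A filter leaves a member's ratio as it is, and the hybridization controls shift every ratio alike. Under the 6 other settings, 131 of 137 values of single members moved by less than the probe-set SD. The 6 that moved by more, of ZNF91, ZNF254, ZNF320 and ZNF765, came with another probe set rule. Many of the 137 could not move by more, since scaling to one median also shifts every ratio alike. A probe set rule likewise leaves the ratio of a member whose probe set stays the same. The 131 are therefore no measure of stability. The sign turned in ZNF254 (-0.43 with the mean of probe sets and -1.42 without _x_at and _s_at) and in ZNF160, which lay near 0. ZNF253 and ZNF600 have no measured probe set other than _x_at. Level on the hybridization controls, the members' median was -0.73 (-0.72 in 19p12 and -0.73 in 19q13.4), with 0 at least 2-fold higher and 7 lower, while other ZNF genes had a median of -0.68, with 0.749% higher and 32.2% lower. Members at least 2-fold higher numbered 1 with one median, 0 with a pseudocount of 32 and 1 with both arrays above the filter. The shares over all genes under these settings were 7.70%, 6.88% and 7.95%. With no filter 8 of 44 members were higher and 7 lower, against 16.1% and 12.7% of all 19775 genes. Other ZNF genes were 2-fold lower in 5.26% with the pseudocount and higher in 11.8% with no filter. The mean of probe sets gave medians of -0.31 for the members, -0.49 for 19p12 and -0.24 for 19q13.4. Without _x_at and _s_at probe sets the medians were -0.39, -0.42 and -0.39. There 0 members were higher and 5 lower, against 9.07% and 10.6% of all genes. At 1.5-fold 3 members were higher and 5 lower, against 21.7% and 19.5% of all genes and 18.4% and 24.3% of other ZNF genes. At 3-fold 0 members were higher and 0 lower, against 2.28% and 2.26% of all genes and 0.749% and 1.12% of other ZNF genes. No paired analysis was possible because each condition has 1 array, and none could be left out.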
